A study of Mus musculus with 48 samples.

Results

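A set of 10 genes that respond to, or belong to, the YAP pathway was followed through all RNA-seq and Ribo-seq libraries of mouse embryonic stem cells (mESCs). They are *Thbs1*, *Ccn1*, *Ccn2*, *Ankrd1*, *Amotl2*, *Ajuba*, *Lats2*, *Yap1*, *Tead1* and *Tead4*, 10 of the 55335 genes in the deposited tables. They were picked by name, because *Thbs1* has one of the largest increases in *Mtrex*-KO cells. All values in *Mtrex*-KO are therefore given as a description, with no p-value, and were used in the choice of the genes. Other earlier results of these data were also known at the choice. Which of them bore on it is not recorded, so p-values in the other comparisons carry that doubt.

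YAP is a transcriptional coactivator that is held in the cytoplasm when the LATS kinases of the Hippo pathway phosphorylate it. When the kinases are inactive, as in spread cells on a stiff matrix, YAP enters the nucleus, binds TEAD factors and raises the transcription of genes such as *Ccn1*, *Ccn2* and *Ankrd1*. In the early mouse embryo the pathway separates the trophectoderm, where YAP and TEAD4 are active, from the inner cell mass, the source of mESCs.

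The study asks how NRDE2, a nuclear protein that binds the RNA helicase MTREX, and the splicing-related protein CCDC174 shape the transcriptome. RNA-seq measured rRNA-depleted total RNA in 14 groups of 2 libraries, and Ribo-seq, which sequences mRNA fragments covered by ribosomes, in 2 groups of 2. All cells were male mESCs of a hybrid 129-C57BL/6 background, grown with serum, LIF and 2i, from parental lines that carry Cre-ERT2, alone or with the biotin ligase BirA. *Nrde2*-KO cells received 100 nM 4-hydroxytamoxifen (4OHT) for 4 days to delete the floxed gene, and *Mtrex*-KO cells for 3 days. Their WT controls were the same conditional lines without 4OHT, so the knockout and 4OHT itself cannot be told apart. The *Nrde2d200* cells lack the N-terminal 200 amino acids of NRDE2, and the *Nrde2-D174R* cells carry a point mutation that weakens the binding of MTREX. Neither received 4OHT, both come from the tagged conditional *Nrde2* line, and both share their WT libraries with the first *Nrde2*-KO group. Both were edited further and picked as clones, so the mutation and a difference between lines cannot be told apart. *Ccdc174-dTAG* cells express CCDC174 fused to the FKBP12F36V degron and received 500 nM dTAG-13 for 24 hours, and their WT is the same line without dTAG-13. A second *Nrde2*-KO experiment and the *Ccdc174-dTAG* experiment were each done without and with the translation inhibitor cycloheximide (CHX, 0.1 mg/ml for 4 hours). Ribo-seq compared *Nrde2*-KO with WT.

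RNA-seq libraries held 28683644 to 36272309 reads in genes, and Ribo-seq libraries 3475051 to 5035940. Levels are the deposited CPM (reads scaled to a common library total) divided by 1 size factor per library, called normalised CPM, and spreads are SD over n = 2 libraries. A gene is said to rise or fall when its limma p, adjusted by the Benjamini-Hochberg method, is under 0.01 and the groups differ by more than 1 on the log2 scale. Fold values are ratios of group means, and log2 fold changes come from the fit with 0.25 added to each level, so the 2 differ for genes of low level. With 2 libraries a group, a separation without overlap is common by chance and is given as description. Genes entered a fit when their CPM averaged 0.5 or more over its libraries. Without CHX and in Ribo-seq 9 of the 10 genes passed this filter, and *Ankrd1* did not. With CHX all 10 passed, *Ankrd1* only through the CHX libraries. *Thbs1*, with a mean of 1.23 CPM in the 18 libraries without CHX other than *Mtrex*-KO, passed also without them.

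The targeted genes were read first as a check of the labels. *Nrde2* stood at 41.3 and 40.3 normalised CPM in WT and at 19.2 and 20.3 in *Nrde2*-KO, and in the second experiment at 53.3 and 51.9 against 19.8 and 19.6. *Mtrex* stood at 118 and 111 in its WT and at 46.2 and 41.3 in *Mtrex*-KO. This WT line thus already differs in *Mtrex* from the untreated WT of the other experiments, whose means were 210.1, 250.2 and 195, and *Thbs1*, *Ccn1* and *Ccn2* were lowest in it of all 14 groups. In Ribo-seq *Nrde2* was at 12.2 and 14.2 in WT and 2.33 and 3.24 in *Nrde2*-KO. In each of these comparisons both knockout libraries lay below both controls. With CHX this was not so, because *Nrde2* read 242 and 224 in WT and 257 and 249 in the libraries labelled *Nrde2*-KO. The whole-gene count thus does not check that label. Other genes bear on it: of the 711 further genes called in the first *Nrde2*-KO experiment and tested with CHX, 703 had the same sign in both and 346 were called in the same direction with CHX, although the 2 comparisons share no libraries. *Ccdc174* mRNA read 28.2 and 28.2 in WT and 35.2 and 38.0 in *Ccdc174-dTAG*, which checks nothing, since dTAG-13 removes the protein. *Nrde2* read 51.9 and 53.6 in *Nrde2d200* and 43.0 and 40.5 in *Nrde2-D174R*, against 41.3 and 40.3 in their WT. The whole-gene count does not check these labels either.

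All 9 ES cell markers on a list (*Pou5f1*, *Sox2*, *Nanog*, *Esrrb*, *Klf4*, *Zfp42*, *Tfcp2l1*, *Tdgf1* and *Dppa5a*) were above 1 normalised CPM in each of the 16 groups. Their summed level was lowest in RNA-seq at 3087 in *Ccdc174-dTAG* with CHX and highest at 6412 in the WT of *Mtrex*-KO. Some were called lower, namely *Nanog* in *Mtrex*-KO (−1.03), *Nanog* with CHX in all 4 cell states (−1.15 in WT, −1.26 in *Nrde2*-KO, −1.25 in the *Ccdc174* line and −1.42 in *Ccdc174-dTAG*), *Tfcp2l1* with CHX in 3 of them (−1.33 in WT, −1.41 in the *Ccdc174* line and −1.11 in *Ccdc174-dTAG*), and *Tdgf1* in the libraries labelled *Nrde2*-KO with CHX (−1.01). The summed level of the ES cell markers was lower in *Nrde2*-KO than in WT in both experiments (4624 against 6027, and 5261 against 5996). The same held in the labelled libraries with CHX (3439 against 3988) and in Ribo-seq (2469 against 2981). In bulk samples, more or fewer cells of a type cannot be told apart from more or less RNA per cell, for any of the genes below.

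At rest the 10 genes cover a wide range of levels. Per kilobase of exon, the WT libraries of the first *Nrde2* experiment held 46.9 ± 4.31 normalised CPM of *Ajuba* (SD, n = 2), 20.8 ± 0.655 of *Yap1* and 18.9 ± 1.13 of *Amotl2*. *Tead4* stood at 16.7 ± 0.854 per kilobase, *Ccn1* at 7.53 ± 0.0679, *Ccn2* at 7.05 ± 0.223 and *Tead1* at 4.96 ± 0.227. *Lats2* was lower at 0.816 ± 0.0467, *Thbs1* at 0.0957 ± 0.00902 and *Ankrd1* at 0.0276 ± 0.0243. The WT of the second experiment held more *Ajuba* (87.7 ± 12.2) and *Thbs1* (0.188 ± 0.0344). Thus *Ajuba*, *Yap1*, *Amotl2* and *Tead4* were read at higher levels per length than the secreted targets *Ccn1* and *Ccn2*. Over the 14 RNA-seq groups the span between the highest and the lowest group mean was 6.59 on the log2 scale for *Thbs1*. That span is *Mtrex*-KO against its WT, the contrast that chose the genes, so its rank among all genes is not read. The span was 5.51 for *Ankrd1*, whose lowest groups hold few reads, 4.77 for *Ccn2*, 4.18 for *Ccn1*, 3.11 for *Lats2* and 0.82 for *Yap1*, with a median of 1.36 over 13456 genes of at least 1 CPM. The lowest mean of *Ccn1* and of *Ccn2* was also in the WT of *Mtrex*-KO. Their spans thus rest on values of the same contrast and are not read against that median.

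**Figure D1:**
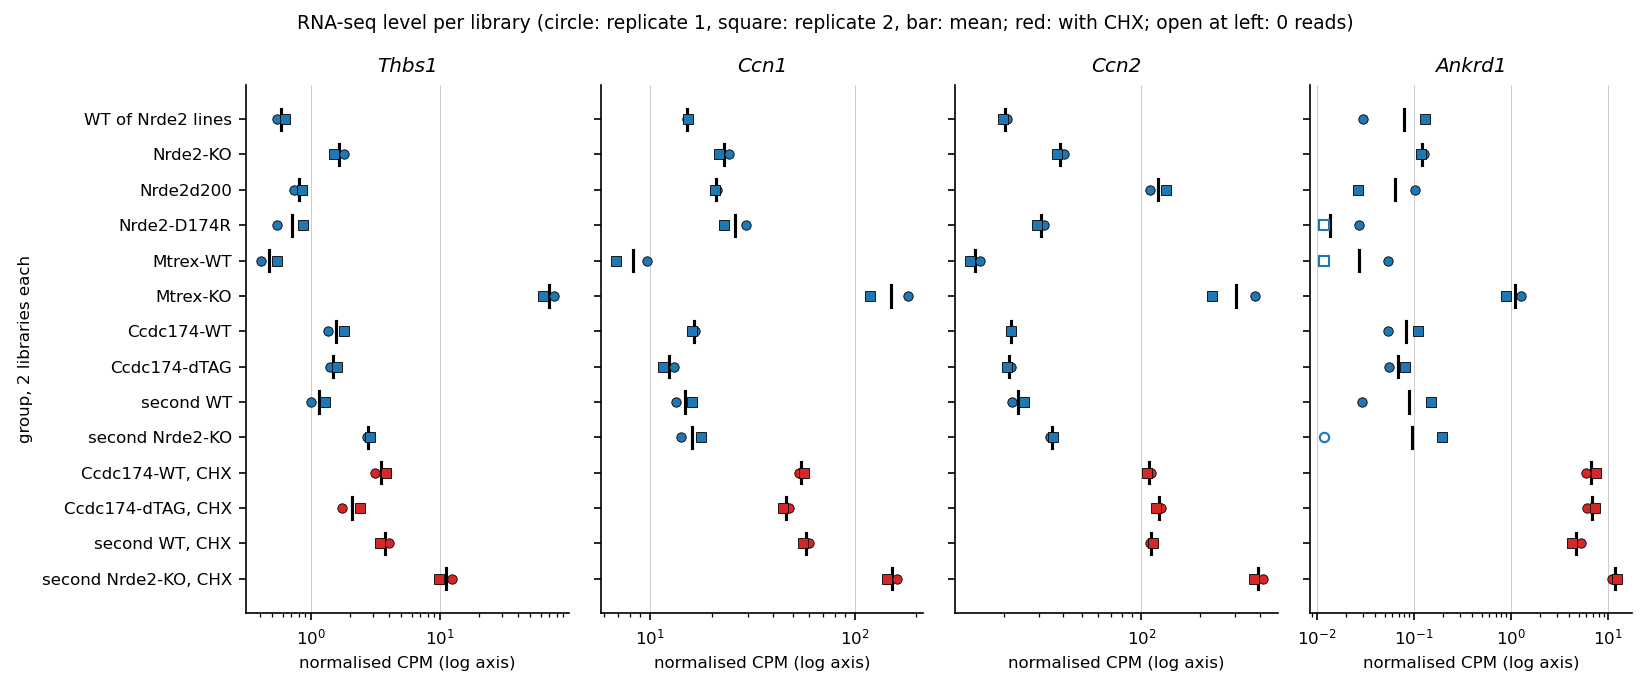
RNA-seq level of 4 target genes in each of the 14 groups, in normalised CPM on a log axis, with circle and square for replicates 1 and 2, a bar for the mean, red for CHX and open symbols for 0 reads. *Thbs1* is highest in *Mtrex*-KO (76.2 and 62.4), *Ccn2* stands out in *Nrde2d200* among the groups without CHX other than *Mtrex*-KO (111 and 134), and *Ankrd1* is above 4 only in the 4 CHX groups.

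*Thbs1* stood farthest from its control in *Mtrex*-KO, the contrast that led to the choice of these genes. *Thbs1*, which encodes thrombospondin 1, a secreted matrix glycoprotein that can activate latent TGF-beta, read 0.408 and 0.538 normalised CPM in WT and 76.2 and 62.4 in *Mtrex*-KO. The reads behind these values were 15 and 19 against 2198 and 1809, and the highest library of any other group, with CHX, was at 12.2. *Ccn1* (CYR61), a secreted integrin-binding protein, stood at 9.68 and 6.80 in WT and 183 and 119 in *Mtrex*-KO. *Ccn2* (CTGF), its relative, read 15.1 and 13.4 in WT and 380.1 and 229 in *Mtrex*-KO. In both genes the knockout replicates differed from each other by more than the WT replicates did, and both stood far above WT. *Ankrd1*, a nuclear ankyrin-repeat protein best known from heart muscle, had 2 and 0 reads in WT and 37 and 26 in *Mtrex*-KO, a ratio of 39.3 of normalised reads.

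The genes that feed back on YAP were also higher in *Mtrex*-KO. *Amotl2*, an angiomotin that retains YAP at cell junctions, read 98.1 and 83.5 in WT and 371 and 302 in the knockout. *Ajuba*, a LIM protein that binds and restrains LATS kinases, read 171 and 176 in WT and 475 and 419 in *Mtrex*-KO. *Lats2*, a kinase that phosphorylates YAP, read 4.89 and 4.70 in WT and 18.7 and 16.3 in *Mtrex*-KO. Their knockout libraries lay above those of WT. *Yap1* itself overlapped, at 211 and 190.2 in WT and 209.8 and 225 in *Mtrex*-KO. Of the TEAD factors, which carry YAP to DNA, *Tead1* read 83.0 and 69.0 in WT and 264 and 97.2 in *Mtrex*-KO, and its higher mean rests on replicate 1. *Tead4* was lower in the knockout, 38.0 and 53.4 against 62.3 and 67.0.

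The log2 fold changes in *Mtrex*-KO were 6.59 (SE 0.21) for *Thbs1*, 4.35 (SE 0.16) for *Ccn2* and 4.14 (SE 0.19) for *Ccn1*. They were 1.88 for *Amotl2*, 1.81 for *Lats2*, 1.36 for *Ajuba*, 1.08 for *Tead1*, 0.12 for *Yap1* and −0.52 for *Tead4*. By the thresholds above 7 of the 9 genes rose and 0 fell, where 15.8% of all tested genes rose and 10.9% fell. Since this contrast chose the genes, nothing is read from that count. Without *Mtrex*-KO replicate 1 the log2 fold change of *Tead1* was 0.36, and without WT replicate 2 it was 0.95, each not called. It was also not called with TMM factors (0.93), with all genes kept and with only the compared groups. The scaling between libraries matters here. In CPM as deposited the median of all genes was −0.38 and 34.1% of the called genes rose, against 59.3% with size factors, and with TMM the figures were −0.15 and 48.9%. In deposited CPM *Ajuba* was at 0.96 and *Tead1* at 0.68, neither called, and the other 5 genes still passed.

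Loss of NRDE2 gave smaller differences, with *Thbs1* higher in both experiments. In the first, *Thbs1* read 0.542 and 0.620 normalised CPM in WT and 1.80 and 1.5 in *Nrde2*-KO, and in the second 0.992 and 1.29 in WT and 2.7 and 2.85 in *Nrde2*-KO. Both knockout libraries lay above both controls each time, on 18 and 24 against 71 and 63 reads in the first experiment. *Thbs1* rose 2.84-fold in the first experiment (log2 fold change 1.19, SE 0.21, limma adjusted p = 4.9e-04, higher in 2 of 2 libraries) and 2.43-fold in the second (log2 fold change 1.13, SE 0.21, limma adjusted p = 7.1e-04, higher in 2 of 2). *Ccn2* read 20.6 and 19.7 in WT and 40.4 and 37.1 in *Nrde2*-KO, and 22.1 and 25.2 against 34.5 and 35.7 in the second experiment, so that knockout libraries lay above their controls in both. It did not reach the threshold of size in either one, with a log2 fold change of 0.93 (SE 0.16, limma adjusted p = 3.3e-04) and then 0.57 (SE 0.16, limma adjusted p = 0.0121). *Ccn1* was at 15.1 and 15.3 in WT and 24.2 and 21.8 in the knockout of the first experiment, and in the second, where the groups overlapped, at 13.4 and 16.1 in WT and 14.2 and 17.8 in *Nrde2*-KO. *Ankrd1* had 6 reads in WT and 10 in *Nrde2*-KO over both libraries, a ratio of 1.47 (95% Clopper-Pearson interval 0.485 to 4.93), where this interval and those below cover counting error only, so a difference was not detectable at this depth.

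The regulators moved little in *Nrde2*-KO, apart from *Tead4*. *Tead4* read 62.4 and 58.1 in WT and 37.3 and 35.1 in the knockout, and in the second experiment 62.6 and 60.5 in WT and 40.1 and 35.2 in *Nrde2*-KO. All 4 knockout libraries were below all 4 WT libraries, with a log2 fold change of −0.73 (SE 0.12, limma adjusted p = 2.7e-04) and −0.71 (SE 0.12, limma adjusted p = 3.3e-04), below the size needed for a call. For *Amotl2*, *Ajuba*, *Lats2*, *Yap1* and *Tead1* the log2 fold changes lay between 0.02 (*Ajuba*) and 0.45 (*Lats2*) in the first experiment, and between −0.03 (*Ajuba*) and 0.28 (*Tead1*) in the second. *Ajuba* differed more between experiments than between genotypes, with WT values of 159.8 and 182 in the first and 288 and 351 in the second. In *Nrde2*-KO 1 of the 9 tested genes rose and 0 fell, where 3.02% of all tested genes rose and 1.98% fell. In the second experiment 1 rose and 0 fell, where 2.4% of all tested genes rose and 2.42% fell, and *Thbs1* was the gene called in both. *Thbs1* was no longer called without *Nrde2*-KO replicate 1 of the first experiment (log2 fold change 1.08, limma adjusted p = 0.0106), nor without WT replicate 1 of the second (0.98, limma adjusted p = 0.0132). With 1 in place of 0.25 added before the logarithm its log2 fold change was 0.74 in the first experiment and 0.82 in the second, which is not called either. The effects of the 2 experiments were compared as an interaction term, a comparison chosen after the values were seen. limma called 0 of the 9 genes (of all tested genes 0% rose and 0% fell), 0 had an unadjusted p under 0.05, and edgeR and DESeq2 called 0 each. The widest difference was that of *Ccn1*, at −0.48 (SE 0.27) on the log2 scale.

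In the *Nrde2d200* line *Ccn2* stood apart from the other genes, and the deletion cannot be told apart from a difference between lines. *Ccn2* read 20.6 and 19.7 in WT, 111 and 134 in *Nrde2d200* and 31.8 and 29.5 in *Nrde2-D174R*. Both *Nrde2d200* libraries lay above every library of WT, *Nrde2*-KO and *Nrde2-D174R*, and overlapped the WT libraries with CHX. *Ccn2* rose 6.06-fold in *Nrde2d200* (log2 fold change 2.58, SE 0.16, limma adjusted p = 1.3e-08, higher in 2 of 2 libraries). *Thbs1* read 0.739 and 0.855, against 0.542 and 0.620 in WT, and its log2 fold change was 0.33 (limma adjusted p = 0.317). *Ccn1* read 21.3 and 20.7 in *Nrde2d200*, with 0.46 (limma adjusted p = 0.106). For *Amotl2*, *Ajuba*, *Lats2*, *Yap1*, *Tead1* and *Tead4* the values lay between 0.01 (*Tead4*, at 59.2 and 61.7 normalised CPM) and 0.16 (*Lats2*) on the log2 scale. In *Nrde2d200* 1 of the 9 tested genes rose and 0 fell, where 1.58% of all tested genes rose and 1.07% fell. *Ankrd1* had 5 reads over both *Nrde2d200* libraries and 6 in WT.

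The groups were also compared with each other, comparisons chosen after the values were seen. *Ccn2* was higher in *Nrde2d200* than in *Nrde2*-KO (log2 fold change 1.65, SE 0.16, limma adjusted p = 5.4e-06) and than in *Nrde2-D174R* (log2 fold change 1.98, SE 0.16, limma adjusted p = 4.9e-07), in 2 of 2 libraries each. *Thbs1* had the opposite order, at 0.739 and 0.855 in *Nrde2d200* and 1.80 and 1.5 in *Nrde2*-KO, with a log2 fold change of −0.86 (SE 0.21, limma adjusted p = 0.0133), which limma did not call and edgeR and DESeq2 did. *Tead4* was higher in *Nrde2d200* than in *Nrde2*-KO by 0.74 (SE 0.12, limma adjusted p = 7.9e-04), below the size needed for a call. Against *Nrde2*-KO 1 of the 9 genes was higher and 0 lower, where 0.833% of all tested genes rose and 0.893% fell. Against *Nrde2-D174R* 1 was higher and 0 lower, where 0.625% of all tested genes rose and 0.732% fell, and in CPM as deposited the median of all genes in that comparison was 0.11 and the share of higher calls 63.9% in place of 46.0%.

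In *Nrde2-D174R*, which shares its WT libraries with the groups above, *Ccn1* read 29.4 and 22.9 against 15.1 and 15.3 in WT, with both mutant libraries above both controls. Its log2 fold change was 0.76 (SE 0.19, limma adjusted p = 0.0485) and that of *Ccn2* 0.60 (SE 0.16, limma adjusted p = 0.0672). *Thbs1*, at 0.547 and 0.870, overlapped WT. limma called 0 of the 9 genes, where 0.154% of all tested genes rose and 0.0604% fell. An unadjusted p under 0.05 was seen in 3 of them, and edgeR and DESeq2 called 0 each.

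Depletion of CCDC174 left the target genes near their controls. *Thbs1* read 1.34 and 1.79 in WT and 1.39 and 1.58 in *Ccdc174-dTAG*, and *Ccn2* read 21.6 and 21.7 in WT and 21.8 and 20.8 in *Ccdc174-dTAG*. Both genes overlapped between the groups. *Ccn1* was lower in both depleted libraries, 13.1 and 11.6 against 16.6 and 16.1, and *Amotl2* higher, 126 and 115 against 94.6 and 97.4. The log2 fold changes were −0.40 for *Ccn1* (limma adjusted p = 0.191), 0.33 for *Amotl2* (limma adjusted p = 0.0516) and −0.29 for *Tead4* (limma adjusted p = 0.148), and those of the other 6 tested genes lay between −0.23 (*Lats2*) and 0.17 (*Tead1*). limma called 0 of the 9 genes, where 0.228% of all tested genes rose and 1.16% fell. An unadjusted p under 0.05 was seen in 3, and edgeR and DESeq2 called 0 each.

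**Figure D2:**
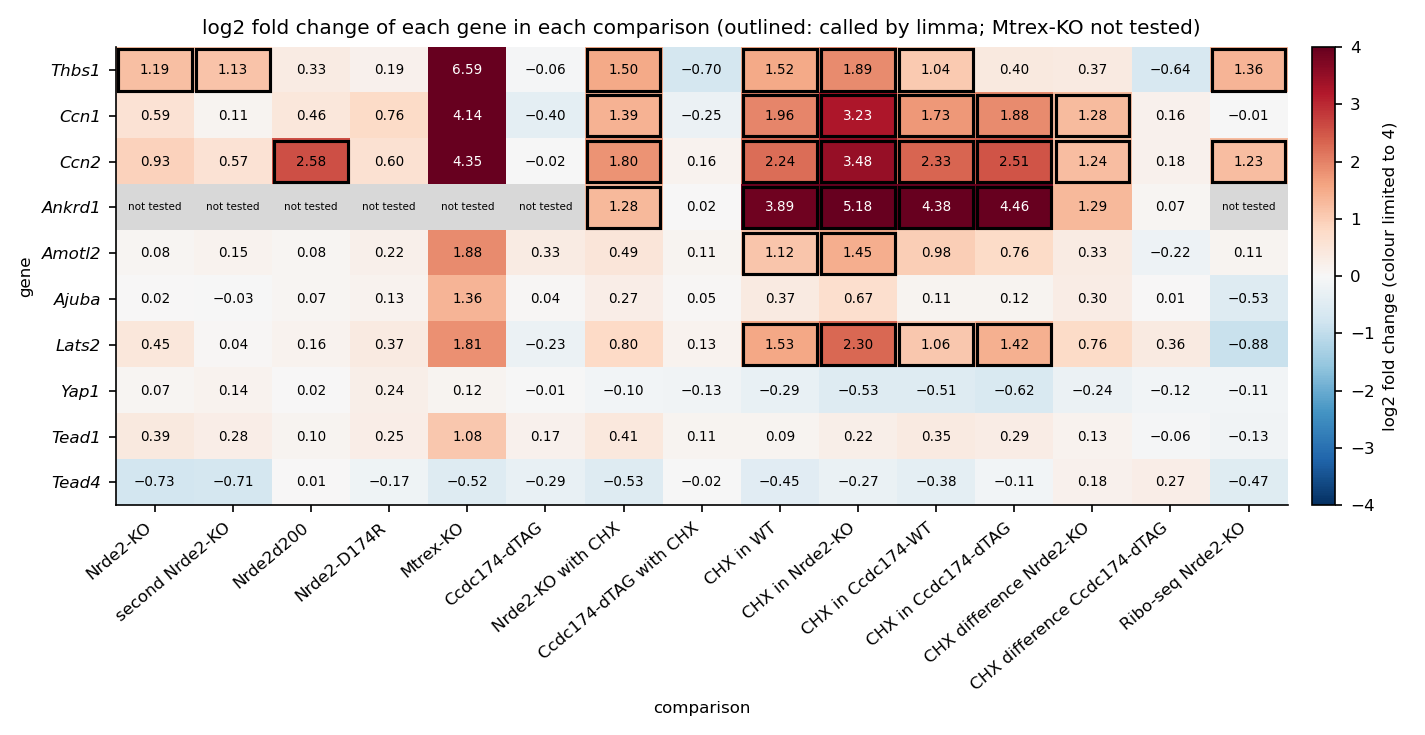
Log2 fold change of each of the 10 genes (vertical axis) in 15 comparisons (horizontal axis), with colour from blue (lower) to red (higher), black outlines around calls by limma, and grey where a gene did not pass the filter. The *Mtrex*-KO column carries no outline because it chose the genes, *Thbs1* is outlined in both *Nrde2*-KO columns (1.19 and 1.13), and *Ccn2* is outlined in *Nrde2d200* (2.58).

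CHX stops translation, and many short-lived mRNAs build up in its presence. The 4 hours of CHX raised *Ccn1* and *Ccn2* in each of the 4 cell states examined. In WT cells of the second *Nrde2* experiment, *Ccn2* read 22.1 and 25.2 without and 111 and 114 with CHX. *Ccn1* read 13.4 and 16.1 without and 59.8 and 56.0 with CHX, and *Thbs1* 0.992 and 1.29 without and 4.02 and 3.43 with CHX. For these genes the libraries with CHX lay above those without it. *Ankrd1* had 1 and 5 reads without CHX and 218 and 175 with it, a ratio of 53.3 (95% Clopper-Pearson interval 24.3 to 146). Since *Ankrd1* entered the test only through the CHX groups, it had to differ, and its fitted fold change depends on the constant added before the logarithm.

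In WT *Ccn2* rose 4.77-fold (log2 fold change 2.24, SE 0.08, limma adjusted p = 2.2e-11), *Ccn1* 3.91-fold (log2 fold change 1.96, SE 0.11, limma adjusted p = 4.9e-09) and *Thbs1* 3.27-fold (log2 fold change 1.52, SE 0.20, limma adjusted p = 1.2e-05), each in 2 of 2 libraries. The feedback genes *Lats2* (4.78 and 7.43 without and 17.0 and 18.6 with CHX) and *Amotl2* (121 and 133 without and 286 and 267 with CHX) rose by 1.53 (limma adjusted p = 3.8e-06) and 1.12 (limma adjusted p = 2.2e-08) on the log2 scale. *Ajuba* read 288 and 351 without and 411 and 409.7 with CHX, with 0.37 (limma adjusted p = 0.0191). *Yap1* and *Tead4* were lower with CHX, at −0.29 and −0.45, under the threshold of size, and *Tead1* was at 0.09. Of the 10 genes 6 rose and 0 fell in WT, where 11.2% of all tested genes rose and 2.91% fell. *Ankrd1* is 1 of the 6 and was bound to differ by the filter, which leaves 5 of the other 9. In the libraries labelled *Nrde2*-KO the same comparison gave 3.48 for *Ccn2*, 3.23 for *Ccn1* and 1.89 for *Thbs1*, and 6 rose, again 5 of the 9 without *Ankrd1*, and 0 fell, where 10.9% of all tested genes rose and 3.17% fell.

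In the *Ccdc174* line without dTAG-13, *Ccn2* (21.6 and 21.7 without and 113 and 107 with CHX) and *Ccn1* (16.6 and 16.1 without and 53.2 and 56.3 with CHX) rose by 2.33 and 1.73 on the log2 scale (limma adjusted p = 1.4e-11 and 1.2e-08). *Thbs1* read 1.34 and 1.79 without and 3.14 and 3.78 with CHX. Of the 10 genes 5 rose and 0 fell, where 12.6% of all tested genes rose and 2.61% fell, namely *Ccn2*, *Ccn1*, *Lats2* and *Thbs1* (4 of 9) besides *Ankrd1*, which the filter bound to differ. Of these calls 2 sit near the threshold. *Thbs1*, at 1.04, was not called without WT replicate 1 (0.86), without WT replicate 2 with CHX (0.91), with TMM factors (0.99) or with 1 added (0.80). *Lats2*, at 1.06, was not called without WT replicate 1 (0.91), without WT replicate 1 with CHX (0.95) or with 1 added (0.94). In *Ccdc174-dTAG* cells 4 of the 10 genes rose with CHX, 3 of 9 without *Ankrd1*, and 0 fell, where 11.9% of all tested genes rose and 2.68% fell. *Ccn2* went up by 2.51, *Ccn1* by 1.88 and *Lats2* by 1.42 on the log2 scale, and *Ankrd1* had a read ratio of 98.6 (95% Clopper-Pearson interval 42.0 to 305). *Thbs1* read 1.39 and 1.58 without and 1.74 and 2.37 with CHX there, with 0.40 (limma adjusted p = 0.0901). *Yap1* was lower with CHX in all 4 states, by log2 values between −0.62 and −0.29, none past the threshold of size. Deposited CPM put the median of all genes at 0.20 in WT, 0.20 in *Nrde2*-KO, 0.21 in the *Ccdc174* line and 0.24 in *Ccdc174-dTAG*, where size factors put it at 0.00, 0.03, −0.01 and 0.02. The share of higher calls was then 88.1% in place of 77.4% in *Nrde2*-KO and 92.2% in place of 81.6% in *Ccdc174-dTAG*.

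The highest *Ccn2* group mean of all 14 groups was in the libraries labelled *Nrde2*-KO with CHX. *Ccn2* read 111 and 114 in WT with CHX and 416 and 374 in these libraries. *Ccn1* read 59.8 and 56.0 in WT and 160.1 and 144 in the labelled knockout, and *Thbs1* 4.02 and 3.43 in WT and 12.2 and 9.85 in the labelled knockout. In these 3 genes the 2 groups were far apart, and the *Ccn1* and *Ccn2* values overlapped those of *Mtrex*-KO without CHX. *Ankrd1* read 5.22 and 4.22 in WT and 11.1 and 12.5 in the labelled knockout, from 218 and 175 reads against 452 and 501.

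With CHX, *Ccn2* was 3.5-fold higher in the libraries labelled *Nrde2*-KO (log2 fold change 1.80, SE 0.06, limma adjusted p = 1.5e-07), *Thbs1* 2.97-fold (log2 fold change 1.5, SE 0.18, limma adjusted p = 9.9e-05) and *Ccn1* 2.62-fold (log2 fold change 1.39, SE 0.07, limma adjusted p = 3.9e-07). *Ankrd1* was 2.50-fold higher (log2 fold change 1.28, SE 0.16, limma adjusted p = 1.2e-04). All 4 were higher in 2 of 2 libraries, and 4 of the 10 genes rose and 0 fell, where 2.82% of all tested genes rose and 1.73% fell. *Lats2* (17.0 and 18.6 in WT and 30.9 and 31.3 in the labelled knockout) was at 0.80 (limma adjusted p = 1.2e-04), *Amotl2* at 0.49, *Tead1* at 0.41 and *Tead4* at −0.53 (limma adjusted p = 8.2e-05), below the size needed for a call.

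Whether the effect of CHX differed between *Nrde2*-KO and WT was tested as an interaction term over 16 libraries. The increase of *Ccn1* with CHX was larger in the libraries labelled *Nrde2*-KO by 1.28 on the log2 scale (SE 0.16, limma adjusted p = 0.00107) and that of *Ccn2* by 1.24 (SE 0.11, limma adjusted p = 8.0e-05). *Thbs1*, which was already higher in *Nrde2*-KO without CHX, was at 0.37 (limma adjusted p = 0.579), *Ankrd1* at 1.29 (limma adjusted p = 0.0959) and *Lats2* at 0.76 (limma adjusted p = 0.154). Of the 10 genes 2 rose and 0 fell in this test, where 0.106% of all tested genes rose and 0.0661% fell. The call of *Ccn1* was lost without WT replicate 2 with CHX (1.23, limma adjusted p = 0.0103), without *Nrde2*-KO replicate 1 with CHX (1.20, limma adjusted p = 0.0128) and with only the compared groups (limma adjusted p = 0.0108).

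In *Ccdc174-dTAG* with CHX, *Thbs1* read 1.74 and 2.37 against 3.14 and 3.78 in WT with CHX, and both depleted libraries lay below both controls. Its log2 fold change was −0.70 (SE 0.18, limma adjusted p = 0.0205), *Ccn1* was at −0.25 (limma adjusted p = 0.025) and *Ccn2* at 0.16 (limma adjusted p = 0.0894). limma called 0 of the 10 genes, where 0.207% of all tested genes rose and 0.704% fell. An unadjusted p under 0.05 was seen in 4, and edgeR and DESeq2 called 0 each. For the difference in the effect of CHX between *Ccdc174-dTAG* and its WT, limma called 0 of the 10 genes, where 0.0396% of all tested genes rose and 0.033% fell. An unadjusted p under 0.05 was seen in 2, edgeR and DESeq2 called 0 each, and *Thbs1* was at −0.64 (limma adjusted p = 0.466). With size factors from the libraries of the fit, the share of higher calls among all genes was 44.4% in place of 54.5%.

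Ribo-seq asks whether the same genes carry more ribosomes in *Nrde2*-KO. *Ccn2* footprints read 24.3 and 28.1 normalised CPM in WT and 60.5 and 62.3 in *Nrde2*-KO. *Thbs1* read 2.21 and 1.46 in WT and 5.37 and 4.67 in *Nrde2*-KO, on 17 and 11 reads against 30 and 36. *Ccn1* read 25.9 and 22.7 in WT and 24.4 and 23.8 in *Nrde2*-KO. The knockout libraries were above WT in *Ccn2* and *Thbs1*, and the groups overlapped in *Ccn1*. *Ccn2* rose 2.35-fold (log2 fold change 1.23, SE 0.10, limma adjusted p = 2.1e-08) and *Thbs1* 2.73-fold (log2 fold change 1.36, SE 0.30, limma adjusted p = 0.00138), each in 2 of 2 libraries, and *Ccn1* was at −0.01 (limma adjusted p = 0.963). Of the 9 tested genes 2 rose and 0 fell, where 3.62% of all tested genes rose and 2.8% fell. The call of *Thbs1* was lost without WT replicate 2 (1.10, limma adjusted p = 0.0102), with all genes kept (limma adjusted p = 0.0211) and by DESeq2 (DESeq2 adjusted p = 0.0403), and the range of its log2 fold change over all settings with all libraries was 1.10 to 1.5.

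The regulators read lower footprints in *Nrde2*-KO in some cases, none called. *Ajuba* read 75.1 and 80.4 in WT and 57.1 and 50.7 in the knockout (log2 fold change −0.53, SE 0.09, limma adjusted p = 1.3e-04), and *Tead4* 19.4 and 17.9 in WT and 14.3 and 12.4 in *Nrde2*-KO (log2 fold change −0.47, SE 0.14, limma adjusted p = 0.0117). Both genes had knockout libraries below WT without overlap, as had *Lats2*, *Yap1* and *Tead1*, while those of *Amotl2* lay above WT. *Lats2* rests on between 3 and 16 reads per library and was at −0.88 (SE 0.47), while *Yap1*, *Tead1* and *Amotl2* lay between −0.13 and 0.11. *Ankrd1* had 0 reads in all 4 libraries. In any single library a true level under 0.389 to 0.537 normalised CPM, the value of 3 reads, could have gone unseen by counting error alone. For the 4 libraries together that limit is lower. The Ribo-seq effect minus the RNA-seq effect of the first experiment was tested as an interaction term, and the second experiment was not used. limma called 0 of the 9 tested genes, where 0.898% of all tested genes rose and 0.279% fell. An unadjusted p under 0.05 was seen in 4 (*Ccn1*, *Ajuba*, *Tead1* and *Lats2*, all negative), and edgeR and DESeq2 called 0 each. *Ccn1* was at −0.60 (SE 0.16, limma adjusted p = 0.0246), *Ajuba* at −0.55 (SE 0.12, limma adjusted p = 0.0118) and *Tead1* at −0.52 (SE 0.13, limma adjusted p = 0.0219). The value of *Ccn1* rests on the choice of experiment, since its RNA-seq log2 fold change was 0.59 in the first and 0.11 in the second. *Ccn2* (0.29, limma adjusted p = 0.181) and *Thbs1* (0.17, limma adjusted p = 0.815) had positive values. In CPM as deposited the median of all genes in Ribo-seq was 0.15 and 75.5% of calls were higher, in place of 56.4%, and for the interaction 90.5% in place of 76.3%.

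**Figure D3:**
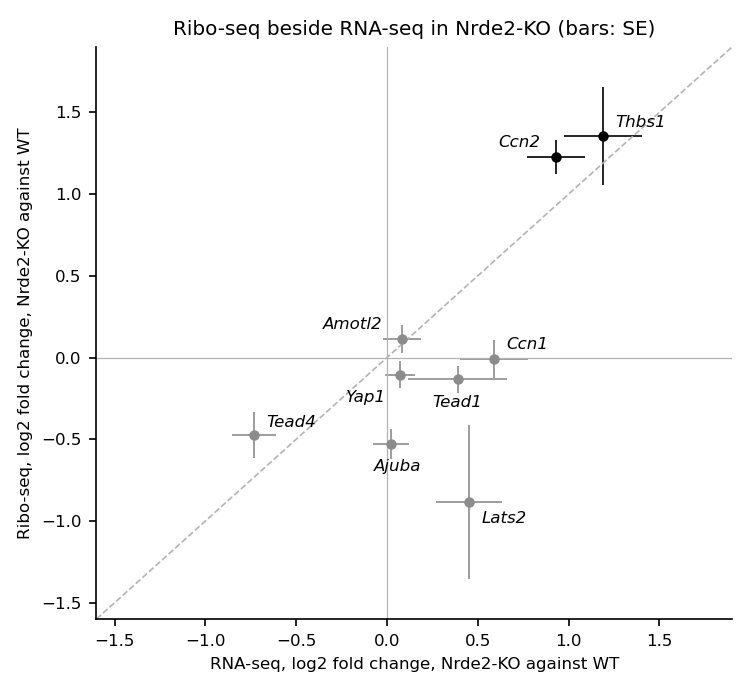
Log2 fold change in *Nrde2*-KO against WT in Ribo-seq (vertical axis) and in RNA-seq of the first experiment (horizontal axis) for the 9 tested genes, with bars for the SE, black points for calls in Ribo-seq and a dashed line at equal values. *Thbs1* (1.19 in RNA-seq and 1.36 in Ribo-seq) and *Ccn2* (0.93 and 1.23) lie at the upper right, and *Ajuba* (0.02 and −0.53) lies below the line.

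In WT cells 8 of the 10 genes had at least 1 CPM in both assays, *Thbs1* and *Ankrd1* did not, and the 8 differed in footprints per RNA. Relative to the median of 10832 protein-coding genes of at least 1 CPM in both assays, the log2 ratio of Ribo-seq to RNA-seq was 1.64 for *Ccn1*, 1.35 for *Ccn2* and 1.18 for *Tead1*, and −0.78 for *Lats2* and −0.70 for *Tead4*. *Ccn1* was above 93.3% of those genes and *Ccn2* above 89.5%. RNA-seq counts whole transcripts and Ribo-seq mostly coding sequence, so a short noncoding part raises this ratio.

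Other genes of the pathway were counted from lists, where 3.02% of all tested genes rose and 1.98% fell in *Nrde2*-KO, and 3.62% and 2.8% in Ribo-seq. No list was tested against these shares, and counts of 1 gene are too small to be set apart from them. In *Nrde2*-KO, 1 of 14 tested further YAP target genes rose, *Ptpn14* (1.17, limma adjusted p = 9.2e-06), a phosphatase that restrains YAP. Of 20 tested Hippo kinases and upstream regulators 1 fell, *Wwc1*, which encodes the scaffold KIBRA that activates LATS kinases (−1.43, limma adjusted p = 1.7e-08). Of 10 receptors of THBS1 and CCN proteins 1 rose, the heparan sulfate proteoglycan *Sdc4* (1.02, limma adjusted p = 2.5e-05). In the second experiment *Wwc1* (−1.27, limma adjusted p = 3.8e-08) and *Sdc4* (1.26, limma adjusted p = 2.4e-06) were called again in the same directions, *Amot* rose (1.10), and 0 of the 14 target genes were called. Ribo-seq called *Wwc1* (−1.11, limma adjusted p = 1.5e-05), *Sdc4* (1.59, limma adjusted p = 2.9e-10) and, of 14 target genes, *Crim1* (1.75) and *Igfbp3* (1.33), all higher but *Wwc1*. It also called the Hippo gene *Taok3* as higher (1.04, limma adjusted p = 0.00705) and, of 10 tested SRF and MRTF targets, *Flna* as lower (−1.41, limma adjusted p = 5.0e-10). Neither nuclear partners of YAP, such as TAZ and further TEAD and VGLL genes (0 of 5 tested), nor SRF and MRTF targets, which also respond to cell shape (0 of 12), were called by limma in RNA-seq of either *Nrde2*-KO experiment, and of the CCN and thrombospondin relatives 2 of 8 were tested and 0 called.

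In *Nrde2d200* the TEAD-binding gene *Vgll3* rose (1.46, limma adjusted p = 1.2e-04), 1 of 5 nuclear partners, and of 14 further target genes *Tgfb2* rose (1.02) and *Axl* fell (−1.13), where 1.58% of all tested genes rose and 1.07% fell, so that such counts of 1 gene are not set apart from these shares. In *Mtrex*-KO 7 of the 14 target genes rose and 0 fell, with *Nt5e* (3.29), *Ptpn14* (3.15) and *Tgfb2* (2.64) the farthest from WT, and the median of the list was 1.03 against 0.00 over all genes. Of 12 SRF and MRTF targets 5 rose there, led by *Tagln* (4.36), of 20 Hippo regulators 4, led by *Amot* (2.76), and of 10 receptors 3 rose and 1 fell. Of 5 nuclear partners 3 rose, among them *Vgll3* (3.21) and *Tead3* (1.29), and 1 fell, *Tead2* (−1.48). These counts stand against 15.8% of all tested genes that rose and 10.9% that fell, to which 4 of 20 is close, and nothing is read from them, since this contrast chose the 10 genes. With CHX in WT, 2 of the 14 target genes rose, *Tgfb2* (3.28) and *Gadd45a* (1.53), and *Ptpn14* fell (−1.26), near the 11.2% of all tested genes that rose and 2.91% that fell. Of the 4 tested relatives of the CCN and thrombospondin genes *Comp* rose (1.06), and *Ccn4* (2.79) and *Thbs2* (1.65) were called too but, like *Ankrd1*, passed the filter only through the CHX libraries. With CHX, the libraries labelled *Nrde2*-KO had higher *Nt5e* (1.19) and *Ptpn14* (1.09) than WT, 2 of 14 target genes. *Sdc4* (1.59, 1 of 10 receptors), *Amot* (1.17, 1 of 22 Hippo regulators) and *Vgll1* (1.17, 1 of 6 nuclear partners) were higher too. *Ccn4* (−1.24, 1 of 4 relatives) was lower. Of all tested genes 2.82% rose and 1.73% fell there. In *Ccdc174-dTAG* with CHX *Nt5e* (−1.20, 1 of 14 target genes), *Ccn4* (−1.51, 1 of 4 relatives) and the receptor gene *Lrp1* (−1.02, 1 of 10) fell. Of all tested genes 0.207% rose and 0.704% fell in that comparison.

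Over the 14 RNA-seq groups, *Ccn1* and *Ccn2* had a Pearson correlation of group means of 0.93, *Ccn1* and *Amotl2* of 0.96, and *Thbs1* and *Ccn2* of 0.77, as a description with no test, since the points share a few strong treatments. *Yap1* ran against *Ankrd1* (−0.84). Among 9744 genes, those most like *Thbs1* were *A630072M18Rik* (0.97), *Crybg1* (0.97), *Phlda1* (0.96), *Agbl3* (0.95), *9330162G02Rik* (0.95). All 5 are highest in *Mtrex*-KO, so this list restates the contrast that chose the genes, whose values enter the other correlations too. Most like *Ccn1* were *Amotl2* (0.96), *Ptgs2* (0.95), *Dusp8* (0.95), *Jun* (0.94), *Smarca2* (0.94). Most like *Ccn2* were *Tent5a* (0.94), *Smarca2* (0.94), *Ccn1* (0.93), *Ptgs2* (0.93), *1110019D14Rik* (0.93). Of these genes *Ptgs2*, *Dusp8* and *Smarca2* are also highest in *Mtrex*-KO.

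Promoters are shown for *Ccn1*, *Ankrd1* and *Amotl2*, which are among the genes high in the same groups. They run from 250 bases before to 50 after the start (RefSeq, GRCm38.p6), 5′ to 3′ on the strand of the gene. Capitals mark the letters GGAATG or, on the other strand, CATTCC, the core that TEAD factors are known to bind. The locations are chr3:145649936-145650235, minus strand for *Ccn1*, chr19:36119795-36120094, minus strand for *Ankrd1* and chr9:102717554-102717853, plus strand for *Amotl2*.
Ccn1: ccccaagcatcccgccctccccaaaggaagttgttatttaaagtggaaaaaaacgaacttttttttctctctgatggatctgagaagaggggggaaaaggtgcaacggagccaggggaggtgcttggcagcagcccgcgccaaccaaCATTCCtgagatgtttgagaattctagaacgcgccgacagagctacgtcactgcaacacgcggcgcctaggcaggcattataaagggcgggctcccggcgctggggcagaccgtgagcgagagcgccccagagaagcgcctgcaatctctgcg
Ankrd1: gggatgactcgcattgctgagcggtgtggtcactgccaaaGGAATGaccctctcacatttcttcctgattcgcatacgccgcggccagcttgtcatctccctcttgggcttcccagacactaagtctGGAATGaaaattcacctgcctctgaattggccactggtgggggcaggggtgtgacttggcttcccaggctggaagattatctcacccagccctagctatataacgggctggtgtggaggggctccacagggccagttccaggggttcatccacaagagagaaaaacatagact
Amotl2: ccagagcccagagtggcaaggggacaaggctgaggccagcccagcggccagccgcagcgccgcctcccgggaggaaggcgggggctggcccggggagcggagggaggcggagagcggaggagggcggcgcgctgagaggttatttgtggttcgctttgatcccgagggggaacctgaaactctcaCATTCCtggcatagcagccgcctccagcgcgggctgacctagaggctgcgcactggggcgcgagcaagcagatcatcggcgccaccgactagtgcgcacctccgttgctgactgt
Promoters were listed for 6 of the 10 genes, *Lats2* with 2, and not for *Thbs1*, *Ccn2*, *Tead1* and *Tead4*. Those of *Lats2*, which is high in the same groups too, are not shown, nor are those of *Ajuba* and *Yap1*. The core was found in 1 or 2 copies in *Ccn1*, *Ankrd1*, *Amotl2*, *Ajuba*, *Yap1* and 1 of the 2 *Lats2* promoters, and in 14.7% of all 32851 promoters of this length. The AP-1 letters TGANTCA, the same on both strands, were in none of these 7 promoters and in 7.81% of all. A match describes the letters and does not show a bound site. The genes were picked by name from the YAP pathway, whose TEAD factors bind this core, so nothing is read from its share.

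Markers of other cell types were read beside these results. The 8 trophectoderm genes summed to 21.4 and 22.7 normalised CPM in the WT of *Mtrex*-KO and to 83.9 and 55.8 in *Mtrex*-KO, where 6 of 8 were above 1 and *Tfap2a* was highest. They summed to 15.9 and 16.3 in WT and 22.9 and 17.8 in *Nrde2*-KO, and with CHX to 20.9 and 21.7 in WT and 31.4 and 31.6 in the libraries labelled *Nrde2*-KO. In *Mtrex*-KO 5 of 6 tested rose, led by *Ascl2* (3.27), *Krt7* (3.24) and *Gata3* (2.28), where 15.8% of all tested genes rose, while *Elf5* was the lowest of the list, at 0.121. *Gata6* (3.01) and *Dab2* (1.97) of the primitive endoderm were higher too, and *T* (−1.41) and *Vwf* (−1.40) lower. As this contrast chose the 10 genes, nothing is read from these values. In *Nrde2*-KO *Gata3* (1.37, limma adjusted p = 6.5e-04) and *Cdx2* (1.32, limma adjusted p = 0.00149) rose, 2 of 6 tested where 3.02% of all tested genes rose, and both rose again in the second experiment, where 2.4% rose (1.25 and 1.36). *Eomes*, the most abundant trophectoderm gene in these groups, went the other way and was not called. It read 8.96 in WT and 7.06 in *Nrde2*-KO, and 16.2 and 14.9 in the second experiment. With CHX *Eomes* read 6.95 in WT and 4.79 in the labelled knockout. The 10 fibroblast genes summed to 18.4 and 18.3 in the WT of *Mtrex*-KO and 7.67 and 7.80 in *Mtrex*-KO, with *Lum* at 0 in the knockout. *Pdgfrb* made most of this difference (13.0 in WT, 1.83 in the knockout), *Thy1* was also lower (−1.45), and *Col1a1* was higher (1.09). In Ribo-seq they summed to 15.7 and 14.2 in WT and 36.4 and 34.3 in *Nrde2*-KO, with *Pdgfrb* highest and *Dcn* at 0 in both groups. There *Col1a1* rose by 2.46 on the log2 scale (limma adjusted p = 3.9e-06) and *Pdgfrb* by 1.45 (limma adjusted p = 9.0e-07), beside *Ccn2* and *Thbs1*. Markers of other types rose there too, *Gata3* (1.12), *Gata6* (1.77), *Pdgfra* (1.65), *Kdr* (1.11) and *Tek* (1.23), and *Col1a1* was also called in Ribo-seq minus RNA-seq (1.74, limma adjusted p = 0.0096). In *Nrde2d200* they summed to 31.6 and 39.0 against 23.3 and 15.9, again mostly *Pdgfrb*, with *Col3a1* at 0 and no fibroblast gene called. Called there beside *Ccn2* were *Gata3* (1.04), *Dab2* (1.24) and *Kdr* (1.78), all higher, and in *Nrde2-D174R* *Gata3* (1.59). Primitive endoderm genes summed to 228 and 202 in WT and 166 and 147 in *Nrde2*-KO, mostly *Lama1*, and the lower sum comes from *Lama1* alone. Against it, *Gata6* (1.78, limma adjusted p = 0.00105) and *Dab2* (1.05, limma adjusted p = 5.8e-04) rose, 2 of 6 tested with 0 that fell, beside the same shares of all genes, and both rose again in the second experiment (2.18 and 1.43). The *Gata6* knockout replicates were far apart, with means of 3.76 (SD 1.51) and then 2.13 (SD 1.64). Its WT means were 0.876 and 0.207. The 6 mesoderm genes summed to 3.86 and 5.22 in WT and 11 and 14.5 in *Nrde2d200*, mostly *Kdr*, and the 6 endothelial genes to 166 and 147 in WT and 149.8 and 173 in *Nrde2d200*, mostly *Pecam1*, which mESCs also express. The endothelial gene *Tek*, 1 of 3 tested, rose in *Nrde2*-KO (1.48) and in the second experiment (1.12), and was higher in *Mtrex*-KO (2.36). The median log2 fold change of the 3 tested genes was −0.11, −0.03 and −0.81 in these comparisons. *Pecam1*, the most abundant, read 124 in WT and 114 in *Nrde2*-KO, and 86.4 and 84.6 in the second experiment. With CHX in WT *Gata3* (1.57), *Tfap2a* (1.56) and *Sox17* (1.28) rose and *Eomes* fell (−1.20). In the libraries labelled *Nrde2*-KO *Gata3* (1.60), *Tfap2a* (1.49), *Pdgfra* (1.41) and *Sox17* (1.39) rose with CHX and *Eomes* fell (−1.59). In the *Ccdc174* line *Pdgfra* (1.40), *Pdgfrb* (1.23), *Tfap2a* (1.09), *Sox17* (1.05) and *Gata3* (1.02) rose, and in *Ccdc174-dTAG* *Tfap2a* (1.36) and *Pdgfra* (1.27). The fibroblast gene *Col3a1* rose in these 4 states by 2.03, 1.71, 2.49 and 1.80. Like *Ankrd1*, it passed the filter only through the CHX libraries. In the libraries labelled *Nrde2*-KO with CHX *Gata3* (1.28), *Cdx2* (1.27), *Gata6* (1.81) and *Pdgfra* (1.49) were higher than in WT, and *Foxa2* (−1.34) and *Vwf* (−1.26) lower. The part of such cells in the levels of the 10 genes was not tested.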

How the data were processed

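The authors mapped RNA-seq reads to mm10 with STAR 2.7.3a, counted unique reads on the gene's strand per GENCODE M23 gene with featureCounts, and deposited CPM, the counts scaled by a library total. Ribo-seq reads were trimmed and collapsed first. The library total behind the deposited CPM is larger than the reads in genes, and whole reads were recovered within 0.1. Gene identifiers were named with GENCODE M21 (55154 of 55335 matched), in which 2955 of 6971 exonic bases of *Lats2* overlap *Gm49361*, so its count is uncertain.

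CPM were divided by median-of-ratios factors, 0.25 was added, log2 taken and limma 3.58.1 fitted with a trend (R 4.3.3): 20 libraries without CHX, 8 with CHX, these with the matching untreated groups (16), 4 Ribo-seq, and 8 for both assays. edgeR 4.0.16 and DESeq2 1.42.0 ran on recovered reads. DESeq2 needed 200, 80, 160 or 10 reads per gene in the fits without CHX, with CHX, of both, and of Ribo-seq. Other alternatives were other constants, filters and scalings, fewer groups, a replicate block and leaving out each library. Direct comparisons of *Nrde2d200* with *Nrde2*-KO and *Nrde2-D174R*, and of both *Nrde2*-KO experiments, and size factors from the libraries of each fit were added after the data were seen. Tables and plots used Python 3.11.15, pandas 2.3.3, numpy 2.4.6, scipy 1.17.1 and matplotlib 3.10.9. The fits were tested on simulated data with the same spread setting for all genes and changes well above the threshold. That test does not cover calls near the threshold or at low reads.

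The 10 genes and all lists were chosen with earlier results of these data known. All 10 are described. From each list of Hippo genes, nuclear partners, YAP targets, relatives, receptors and SRF targets, up to 3 called genes with the largest log2 fold change per comparison could be named, and not all are. Marker lists (ES cell, fibroblast, trophectoderm, primitive endoderm, mesoderm, endothelium) are given by summed level, most abundant gene and, by the same limit of 3, called genes. For *Thbs1*, *Ccn1* and *Ccn2* the 5 genes with the highest correlation of group means were taken among genes of at least 1 CPM whose groups span at least 1 on the log2 scale. The cross-linking libraries have no file of values per gene and were left out.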

Additional observations from a re-analysis of the deposited data

Results flagged for a closer look

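The effect of CHX on *Ccn1* differed between the libraries labelled *Nrde2*-KO and WT by 1.28 on the log2 scale, and that on *Ccn2* by 1.24, each by limma's test of the interaction over 16 libraries. Both came to attention as differences between groups under the same treatment. No group holds more than 2 libraries, so no single library could be tested for standing apart from its group.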

How the results depend on the processing

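With 1 in place of 0.25 added before the logarithm, the count of called genes was 0 in *Nrde2*-KO, 0 in the second *Nrde2*-KO experiment and 3 for CHX in the *Ccdc174* line. With only the compared groups it was 1 for the CHX difference of *Nrde2*-KO. With all genes kept, and with DESeq2, it was 1 in Ribo-seq, and edgeR and DESeq2 each gave 2 for *Nrde2d200* against *Nrde2*-KO. The cause was not tested for any of these 8 counts. The remaining 199 of 207 counts under an alternative stayed within 1.5 times their count, and 436 of 449 log2 fold changes of called genes stayed called, with 13 no longer past a threshold and 0 reversed. These totals include *Mtrex*-KO, which chose the genes, and *Ankrd1* with CHX, which the filter bound to differ.

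When 1 library was left out, the remaining library of its group was assumed to vary like those of other groups. The counts then ranged from 0 to 1 in *Nrde2*-KO and in the second experiment, from 6 to 7 in *Mtrex*-KO, from 3 to 5 for CHX in the *Ccdc174* line, from 1 to 2 for the CHX difference of *Nrde2*-KO and from 1 to 2 in Ribo-seq, and each other count did not move. The cause was not tested. Of 172 log2 fold changes, with the same inclusions, 161 stayed called and 0 reversed.

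Replicates of different groups share a number, and nothing in the labels pairs them. Deviations of same-numbered libraries correlated by −0.03 to 0.42 between compared groups. With the replicate number as a block the counts were 1 in *Nrde2*-KO, 1 in *Nrde2d200*, 7 in *Mtrex*-KO, 6 for CHX in WT and 2 in Ribo-seq, and the block changed no count of the 10 genes in any comparison.

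Of 160 group levels of the 10 genes, 66 moved by more than 1 SD in CPM as deposited, with SDs from 2 libraries. Depth limits *Ankrd1* without CHX, *Thbs1* in most WT libraries, and *Thbs1* and *Lats2* in Ribo-seq. Only the compared groups was not an alternative for Ribo-seq, where the fit holds no others, or for Ribo-seq against RNA-seq.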

Other observations

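The 4 WT groups without CHX differed in some of the 10 genes. *Thbs1* ranged from 0.473 normalised CPM in the WT of *Mtrex*-KO to 1.56 in the *Ccdc174* line, a ratio of 3.31, and *Ajuba* from 135 in the *Ccdc174* line to 319.6 in the second *Nrde2* experiment, a ratio of 2.38. *Yap1* ranged from 192 to 206. These lines differ in tags and experiment, and the part of each was not tested.

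The *Mtrex*-KO replicates stood farther apart than those of any other group. The chi-square per degree of freedom between replicates was 98.4 in *Mtrex*-KO and 13.9 in its WT, and the next highest was 42.9 in *Ccdc174-dTAG* without CHX.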
